A study of Mus musculus with 16 samples.

Results

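The genes described here are 36 genes of DNA replication and cell division, chosen by gene symbol with no measured value in the rule. Of these, 35 had a probe set carrying their symbol alone, among 19752 genes with such a probe set. Ccnb1 had none and entered only the promoter counts. By role the 35 were 9 genes of the replicative helicase and its loading and 8 genes of DNA synthesis, nucleotide supply and chromatin copying. The others were 2 checkpoint kinases, 3 genes of the cyclin-dependent kinase Cdk1 and its cyclins, and 13 genes of mitosis. All values are log2 intensities of Affymetrix Mouse Gene 1.0 ST arrays, and a difference of 1 on this scale is a 2-fold difference.

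A cell that enters division first loads the Mcm2 to Mcm7 helicase onto replication origins, then fires it with Cdc45 and Mcm10, copies its DNA with polymerases supplied by ribonucleotide reductase, and finally separates the copies on a mitotic spindle under Cdk1, Aurora kinases and Plk1. Transcription of the replication genes is controlled largely by E2F factors in late G1 and S phase, and that of the mitotic genes later, in G2, through promoter elements called CHR (cell cycle genes homology region) and CCAAT boxes. Resident peritoneal macrophages are long-lived cells that renew themselves by local division, whereas most splenic CD4 T cells of an unimmunised mouse are resting in G0.

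The series asks how genes induced by interferon depend on Tyk2, a receptor-bound kinase, and on Ifnar1, which encodes part of the receptor for type I interferons. It holds 16 arrays in 8 groups of 2, all from male mice. KO macrophages came from 6-week-old mice of the line B6.129S2-Ifnar1tm1Agt/Mmjax, which carry a targeted Ifnar1 allele, either 2 h after a subcutaneous dose of 10000 units of interferon alpha (IFNα) or titled without it. B10.Q macrophages and CD4 T cells were taken from B10.Q/J males of 7 weeks, whose Tyk2 carries a natural missense mutation, after vehicle or at 2 h or 5 h after the same dose. Each vehicle pair combined a 2 h array with a 5 h array. No group had both genes intact. Line, age, background and deposit differ together between KO and B10.Q, as does the vehicle injection, which no KO title names. These cannot be told apart. Macrophages were sorted from the peritoneal cavity as ICAM2+ F4/80+ cells and T cells from the spleen as TCRB+ CD4+ CD8- cells. The labels do not state whether paired arrays represent separate animals, and p-values therefore measure only the spread between these samples.

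The labels contain contradictions that touch the results. The KO pair without IFNα in its titles carries preparation details naming the same injection as in the treated pair. The titles were followed here, and these arrays are called KO control. If those details are right, neither KO group was free of IFNα. The code Sp stands in 5 of 6 titles of B10.Q macrophages, although the source given is the peritoneal cavity, and array 1 of the T-cell vehicle pair has a title starting with B. Markers of large peritoneal macrophages (12 genes) had a mean log2 level of 11.81 to 12.39 in the 10 macrophage arrays and 6.73 to 8.16 in the 6 T-cell arrays. Markers of CD4 T cells (10 genes) had a mean of 11.99 to 12.18 in the T-cell arrays and 6.65 to 6.97 in the macrophage arrays. The Ifnar1 probe set read 9.93 to 10.31 in the KO arrays and 10.09 to 10.56 in the others, so it does not check the genotype. The 2 KO IFNα arrays correlated at r = 0.984 over genes, the lowest of any pair. The upper quartile of KO IFNα array 1 was 5.49 times its lower quartile, and this ratio was 6.31 to 7.00 for the remaining KO arrays.

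The promoters of 8 genes are shown because these genes carry the differences described below and differ in the elements they hold. Sequences are from RefSeq (GRCm38.p6), which gave a promoter for 29 of the 36 genes. Each is the 160 bases before the annotated start, read 5′ to 3′ on the strand of the gene. Capitals mark E2F-like words (TTTCCCGC, TTTGGCGC, TTTCGCGC, TTTGCCGC or TTCCCGCC, of which the first and last can overlap), CHR words (TTTGAA or TTCGAA) and CCAAT, on either strand. Mcm5, a helicase subunit, lies at chr8:75109349-75109508 (plus strand) and Mcm6, another subunit, at chr1:128359706-128359865 (minus strand). Top2a, the topoisomerase that untangles copied DNA, lies at chr11:99024190-99024349 (minus strand). The checkpoint kinase Chek1 lies at chr9:36726659-36726818 (minus strand). Cdk1 lies at chr10:69352913-69353072 (minus strand) and its partner Ccnb2 (cyclin B2) at chr9:70421555-70421714 (minus strand). Kif11, the kinesin that pushes spindle poles apart, lies at chr19:37376222-37376381 (plus strand), and Bub1, a kinase of the spindle checkpoint, at chr2:127831860-127832019 (minus strand).
Mcm5: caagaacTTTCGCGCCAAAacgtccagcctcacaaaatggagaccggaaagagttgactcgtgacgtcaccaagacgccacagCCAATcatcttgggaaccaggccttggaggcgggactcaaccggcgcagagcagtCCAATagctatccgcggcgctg
Mcm6: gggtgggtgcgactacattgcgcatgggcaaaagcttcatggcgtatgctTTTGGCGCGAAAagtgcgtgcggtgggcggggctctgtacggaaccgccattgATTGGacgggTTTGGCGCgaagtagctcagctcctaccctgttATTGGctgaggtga
Top2a: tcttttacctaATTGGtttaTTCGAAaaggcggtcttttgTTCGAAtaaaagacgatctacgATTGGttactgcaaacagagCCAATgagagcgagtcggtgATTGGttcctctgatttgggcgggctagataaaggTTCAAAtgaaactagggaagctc
Chek1: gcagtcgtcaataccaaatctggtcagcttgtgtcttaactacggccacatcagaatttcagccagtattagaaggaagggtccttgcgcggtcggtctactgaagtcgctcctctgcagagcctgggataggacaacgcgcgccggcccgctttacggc
Cdk1: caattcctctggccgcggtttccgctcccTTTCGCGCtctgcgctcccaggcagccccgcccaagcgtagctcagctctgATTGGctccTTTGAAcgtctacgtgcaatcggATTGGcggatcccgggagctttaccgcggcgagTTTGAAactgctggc
Ccnb2: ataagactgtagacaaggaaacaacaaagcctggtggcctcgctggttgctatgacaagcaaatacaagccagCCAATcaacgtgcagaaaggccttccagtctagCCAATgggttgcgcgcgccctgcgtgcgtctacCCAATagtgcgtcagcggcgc
Kif11: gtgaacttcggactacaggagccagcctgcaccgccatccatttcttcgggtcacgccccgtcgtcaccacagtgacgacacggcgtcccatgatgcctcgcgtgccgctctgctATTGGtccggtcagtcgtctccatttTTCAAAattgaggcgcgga
Bub1: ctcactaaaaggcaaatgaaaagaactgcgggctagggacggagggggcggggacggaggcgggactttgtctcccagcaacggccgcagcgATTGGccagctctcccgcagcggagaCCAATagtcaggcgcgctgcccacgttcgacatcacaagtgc

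A gene was counted when any of its promoters held a word (31 promoters for the 29 genes), whereas all promoters were counted singly. In the 250 bases before the start, 8 of the 29 genes (27.6%) held an E2F-like word, as did 3.24% of all 32851 RefSeq promoters. These were 4 of 8 helicase genes, 3 of 7 DNA synthesis genes and Cdk1, and 0 of 10 mitotic genes. A CHR word was found in 10 of the 29 (34.5%, against 17.1% of all promoters). These were 3 of 8 helicase genes, 1 of 7 DNA synthesis genes, 2 of 3 cyclin and Cdk1 genes and 4 of 10 mitotic genes. The 3 cyclin and Cdk1 genes with a promoter were Ccnb1, Ccnb2 and Cdk1, of which Ccnb2 and Cdk1 held the word. In Ccnb2 it lies 162 bases before the start, outside the window shown. CCAAT was found in 24 of the 29 (82.8%, against 33.8%), in both the replication and the mitotic genes. All 10 promoters with a CHR word also held CCAAT, a combination present in 6.02% of all promoters. Mcm5 and Mcm6 above hold E2F-like words and CCAAT, Top2a holds CHR words and CCAAT, and Cdk1 holds all 3. No word was found in the Chek1 window, which says only that these letters are not in it. A match is a description of the letters, not a bound site.

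Over the B10.Q arrays, 25 of the 35 genes were higher in every macrophage than in every T-cell array, and Mcm2, Mcm4, Mcm7 and Prim1 were higher in every T-cell array. Within macrophages, both KO control arrays lay above all 6 B10.Q arrays for 32 of the 35 genes. The shares of all genes with these patterns stand beside the comparisons below.

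**Figure D1:**
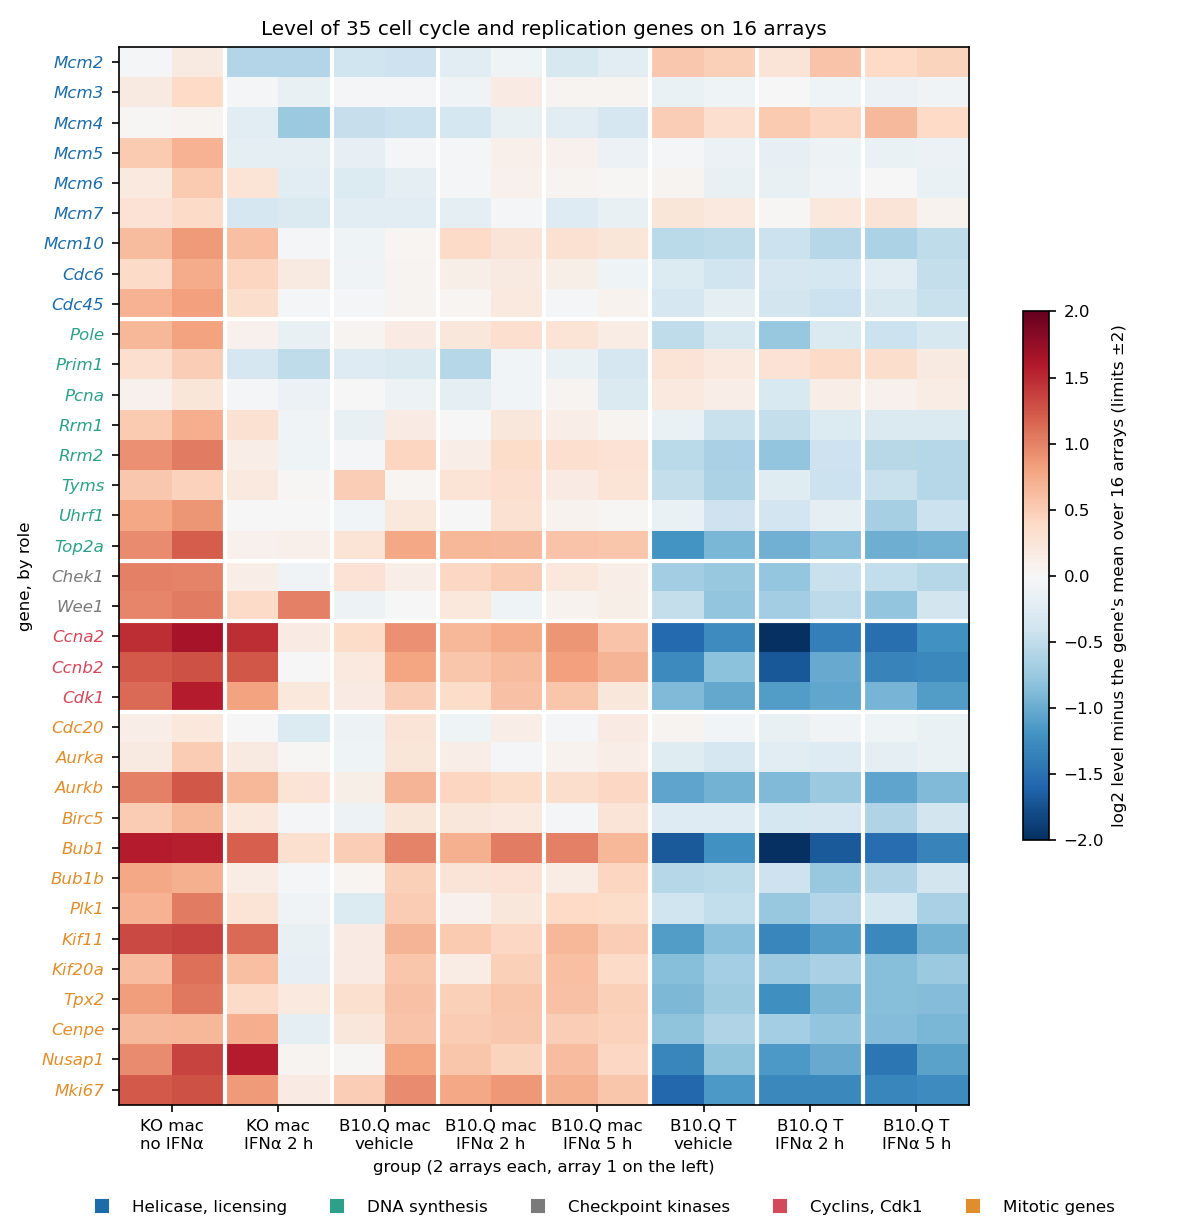
Log2 level of each of 35 genes (rows, by role) minus that gene's mean over the 16 arrays (columns, by group, array 1 on the left), with colours limited at 2 either way. The pair of KO control columns is red for most genes, the second KO IFNα column is paler or blue, and the 6 T-cell columns are blue for most genes except Mcm2, Mcm4, Mcm7 and Prim1.

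In KO macrophages the comparison asks whether IFNα changed these genes without the receptor. With limma, 0 of the 32 genes tested passed an adjusted p of 0.05, and 0 of all 10531 genes did (0%). One of them, Birc5, passed the filter only through the control arrays. All 32 lay lower in the IFNα arrays, as did 53.6% of all genes, and 24 had an unadjusted p under 0.05, as did 460 (4.37%) of all genes. Their median difference was -0.65, against -0.01 over all genes. Both IFNα arrays lay below both control arrays in 27 of the 35 genes, as in 10.3% of all genes. In bulk RNA, fewer dividing cells and less of these transcripts per cell cannot be told apart. Mt2, a metallothionein that responds to stress, read 7.73 and 8.54 in the controls and 9.44 and 9.57 with IFNα (1.38 ± 0.23, adjusted p = 0.174). Of 7 genes induced by glucocorticoids or metals, 6 lay higher with IFNα, with a median of 0.46, as did 4885 of all 10531 genes. In B10.Q macrophages 6 of the 7 lay above vehicle at 2 h (median 0.23) and all 7 at 5 h (median 0.42). Mt2 read 9.29 and 9.12 in the B10.Q vehicle arrays. The part of these genes in the result was not tested.

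Among the helicase genes the values were as follows. Mcm2 read 9.15 and 9.39 in the KO control arrays and 8.61 and 8.62 with IFNα, a difference of -0.65 ± 0.12 (SE, n = 2, limma adjusted p = 0.202). Mcm5 read 9.79 and 9.95 against 9.08 and 9.07 (-0.80 ± 0.12). Mcm7 read 9.29 and 9.39 against 8.65 and 8.70 (-0.66 ± 0.11, adjusted p = 0.174). In these 3 subunits both IFNα arrays lay below both controls and close to each other. Mcm4, Mcm6 and Mcm10 were split: IFNα array 1 read 9.07, 9.60 and 8.25, and array 2 read 8.55, 9.11 and 7.62. Their control arrays read 9.31 and 9.34 for Mcm4, 9.53 and 9.85 for Mcm6 and 8.28 and 8.51 for Mcm10. For Mcm6, IFNα array 1 lay between both controls. The difference of the 6 subunits Mcm2 to Mcm7 ran from -0.80 for Mcm5 to -0.34 for Mcm6, and these subunits form one complex. Cdc45, which travels with this helicase, read 8.70 and 8.82 in the controls and 8.36 and 7.98 with IFNα (-0.59 ± 0.14, adjusted p = 0.551). Cdc6, which loads the helicase, lay below the filter and was not tested (-0.26 ± 0.14).

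The DNA synthesis genes were lower in both IFNα arrays. Rrm2, the small subunit of ribonucleotide reductase, which makes deoxynucleotides, read 9.17 and 9.29 in the KO controls and 8.40 and 8.17 with IFNα (-0.95 ± 0.16, adjusted p = 0.187). Rrm1, the large subunit, read 10.08 and 10.29 against 9.85 and 9.48 (-0.52 ± 0.16, adjusted p = 0.922). The groups did not overlap for either subunit. Top2a read 9.08 and 9.34 in the controls and 8.21 and 8.23 with IFNα, a 1.98-fold difference that was nearly the same in both IFNα arrays. Pole, the leading-strand polymerase, read 8.25 and 8.39 against 7.67 and 7.43, and Uhrf1, which passes DNA methylation to the new strand, read 8.27 and 8.38 against 7.51 and 7.50. For both genes the IFNα arrays lay well below the controls. Prim1, a primase subunit, read 7.37 and 7.53 against 6.70 and 6.53 but lay below the filter. Pcna, the sliding clamp of the polymerases, differed least of the genes tested, at -0.23 ± 0.14 (1.18-fold). Its control arrays read 11.79 and 11.95, and its IFNα arrays 11.68 and 11.59.

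The 2 checkpoint kinases differed from each other. Chek1, which halts the cycle when forks stall, read 8.31 and 8.30 in the KO controls and 7.43 and 7.24 with IFNα. Its adjusted p was the smallest of the 32 genes, at 0.0895, and fell to 0.0277 under quantile normalization and to 0.0170 with all 16 arrays in the fit. Wee1, which holds Cdk1 inactive, read 8.82 and 8.89 against 8.24 and 8.85 (-0.31 ± 0.19, adjusted p = 0.9996). For Wee1, array 1 was low and array 2 lay among the controls.

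The cyclin genes and several mitotic genes were split between the 2 IFNα arrays. Ccnb2 read 11.03 and 11.06 in the KO controls, 11.03 in IFNα array 1 and 9.79 in array 2. Ccna2 (cyclin A2, active in S phase and mitotic entry) read 10.43 and 10.60 in the controls, 10.43 in array 1 and 9.12 in array 2. Kif11 read 9.40 and 9.42 in the controls, 9.21 in array 1 and 7.92 in array 2. In all 3 genes array 1 sat at or near the controls and array 2 far below. Nusap1, which bundles spindle microtubules, was highest of the 4 in array 1 (9.37) and lowest in array 2 (7.87), with controls at 8.75 and 9.16. Bub1 read 8.70 and 8.68 in the controls, 8.31 in array 1 and 7.44 in array 2, and Cdk1 read 9.44 and 9.88, then 9.11 and 8.51. Mki67 (Ki-67, which coats mitotic chromosomes and is used as a marker of cycling cells) read 9.90 and 9.96, then 9.54 and 8.85. For these last 3 genes both IFNα arrays lay below the controls, array 2 further than array 1. The difference was -0.74 ± 0.34 for Ccna2, -0.84 ± 0.33 for Kif11 and -0.81 ± 0.27 for Bub1, with SEs more than 2 times those of Mcm5 and Chek1.

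**Figure D2:**
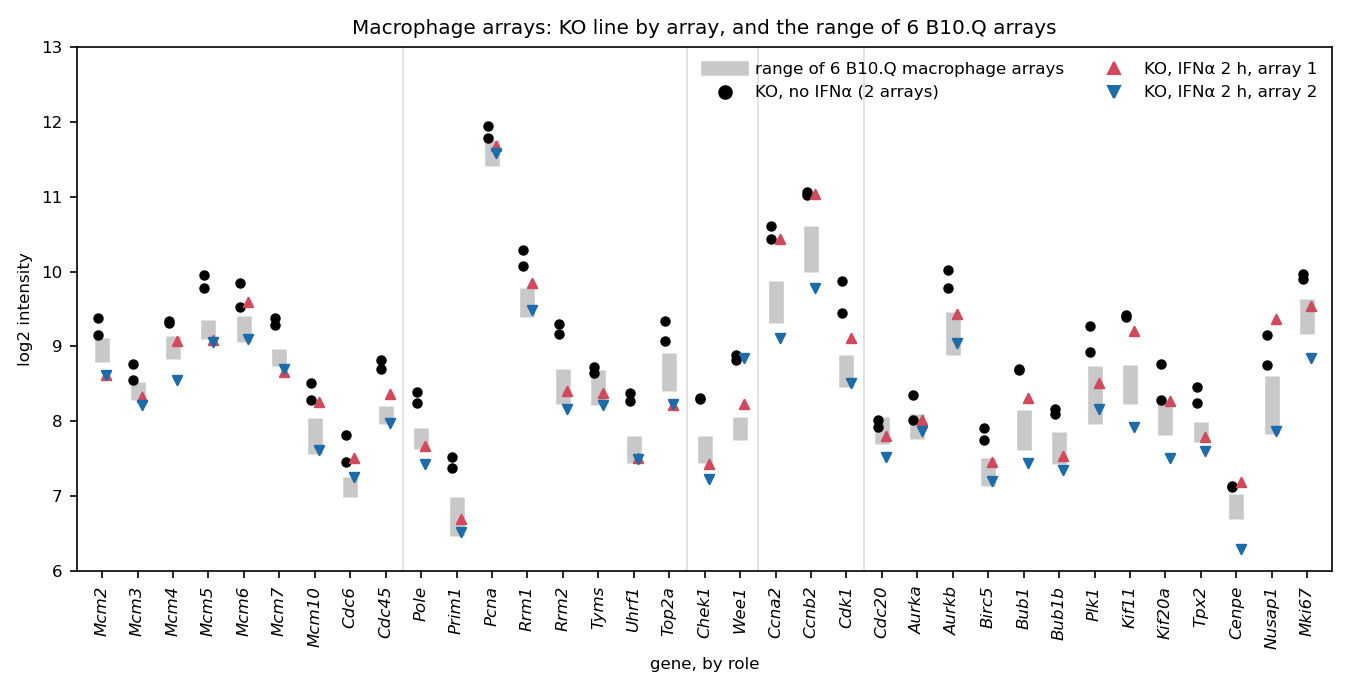
Log2 intensity of each gene in the 2 KO control arrays (black circles), KO IFNα array 1 (red upward triangles) and array 2 (blue downward triangles), with grey bars for the range of the 6 B10.Q macrophage arrays. Both black circles lie above the grey bar for 32 of 35 genes, and the red triangles of Ccna2, Ccnb2 and Cdk1 lie above it while the blue ones lie within or below.

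Set against the mean of the 2 controls, IFNα array 1 had a median gap of -0.70 in the DNA synthesis genes, -0.33 in the helicase genes, -0.37 in the mitotic genes and -0.08 in the cyclin genes. IFNα array 2 had median gaps of -0.86, -0.65, -0.86 and -1.26 in the same order. Over all genes the median gap was -0.06 in array 1 and 0.04 in array 2. In the 2 checkpoint kinases the median gap was -0.75 in array 1 and -0.54 in array 2. All 13 mitotic genes were higher in array 1 than in array 2, by a median of 0.39, and the cyclin genes by a median of 1.24, whereas over all genes array 1 lay lower by a median of 0.10. Control array 1 lay below control array 2 by a median of 0.16 over the 35 genes.

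**Figure D3:**
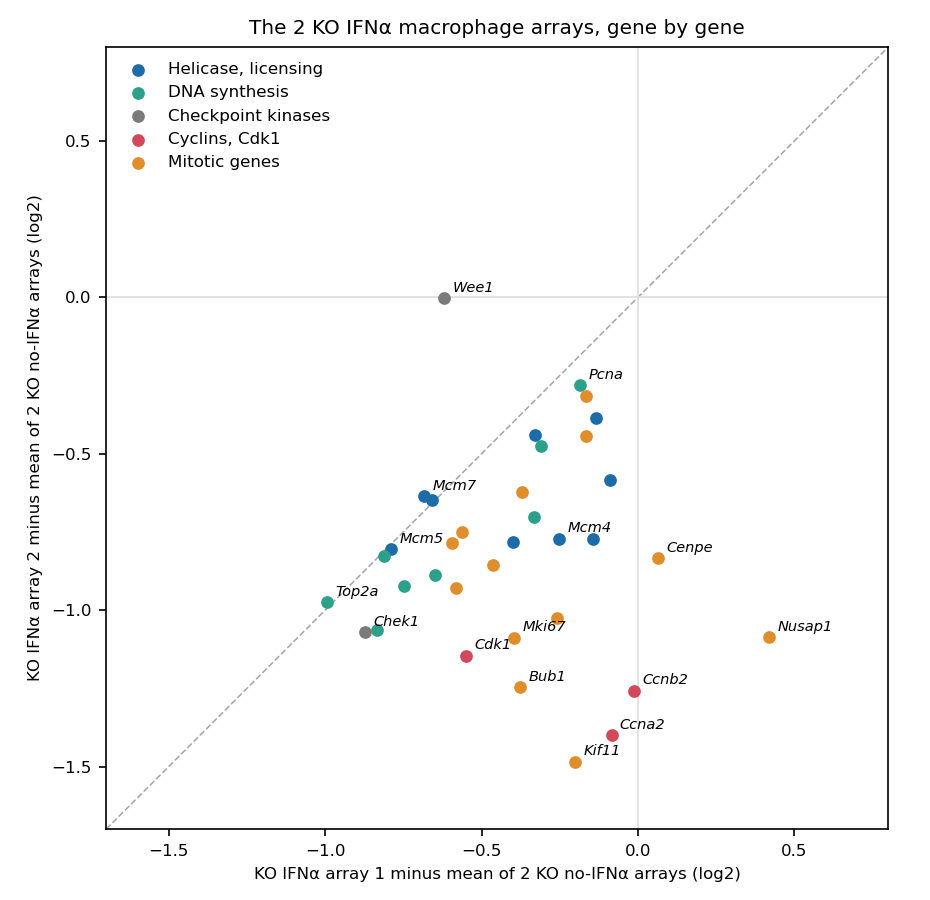
Each point is a gene, placed by its gap to the mean of the 2 KO control arrays in KO IFNα array 1 (horizontal, log2) and array 2 (vertical, log2), coloured by role, with a dashed line of equal gaps. Top2a (-0.99 and -0.97) and Mcm5 (-0.79 and -0.80) lie on the line, while Ccna2 (-0.08 and -1.40), Ccnb2 (-0.01 and -1.26), Kif11 (-0.20 and -1.48) and Nusap1 (0.42 and -1.09) lie far below it.

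The count of calls rested on these arrays. Without KO IFNα array 1, 13 of the genes were called lower (37 of all genes called), without array 2 it was 11 (1191 of all genes), and without either control it was 0, where a lone array is assumed to vary like the other groups. Markers of B cells (8 genes) had a mean of 7.30 and 6.78 in the controls and 7.53 and 6.71 in the IFNα arrays, against 6.60 to 6.71 in the B10.Q macrophage arrays. Neutrophil markers (9 genes) had a mean of 6.92 to 7.25 in the KO arrays and of 6.79 to 6.91 in those of B10.Q macrophages, nearly touching. Csf3r, the highest of them, overlapped between the lines (10.73 to 11.10 in KO, 10.60 to 11.28 in B10.Q). Cxcr2 lay below the lower quartile on all 16 arrays and Ltf on 15. The mean of B-cell markers was thus higher in the arrays numbered 1 of both KO groups, although Pax5 and Blk were lower in control array 1. Among the B-cell markers, Ebf1 lay below the lower quartile on all 16 arrays, and Ms4a1 and Fcrla on 14. All 13 mitotic genes and all 3 cyclin and Cdk1 genes were higher in IFNα array 1 than in IFNα array 2. In the control pair 11 of the 13 mitotic genes and all 3 cyclin and Cdk1 genes were lower in array 1. The part of these markers in the result was not tested.

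Other genes of the same pathways were read from lists of the same kind. In KO macrophages 0 of their genes were called. Of 31 genes for polymerases, fork proteins and nucleotide supply 29 lay lower with IFNα, with a median of -0.32. Of 37 other mitotic genes tested, from 58 with a probe set, 33 did, with a median of -0.42. Of 16 checkpoint and repair genes 14 did, with a median of -0.20. Over all genes 53.6% lay lower. How many genes of these lists passed the filter only through the control arrays was not counted. Medians were nearer 0 in 12 genes of origin licensing (-0.04), in 25 G1 cyclins, cyclin-dependent kinases and E2F factors (-0.09), and in 18 inhibitors of these kinases and quiescence genes (0.02).

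Between the lines, the comparison of B10.Q vehicle with KO control macrophages asks whether these genes differed in arrays titled without IFNα. With limma, 4 of the 32 genes were lower in B10.Q vehicle than in KO control arrays and 0 were higher, where 28 of all genes (0.266%) were called lower and 29 (0.275%) higher. Wee1 read 7.75 and 7.86 in B10.Q vehicle against 8.82 and 8.89 in KO controls (2.07-fold lower, -1.05 ± 0.19, adjusted p = 0.0428). Chek1 read 7.59 and 7.44 against 8.31 and 8.30 (-0.79 ± 0.12, adjusted p = 0.0173). Both checkpoint kinases were thus lower in B10.Q, and the groups did not overlap. Mcm5 read 9.09 and 9.24 in B10.Q vehicle (-0.71 ± 0.12 against KO controls, adjusted p = 0.0411). Uhrf1 read 7.44 and 7.72 (-0.75 ± 0.14, adjusted p = 0.0496). All 4 calls were lost when any 1 of the 4 arrays was left out, and at a filter at the 70th percentile.

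All 32 genes lay lower in B10.Q vehicle, as did 44.2% of all genes, with a median of -0.63 against 0.03 over all genes. One of the 32, Birc5, passed the filter only through the KO control arrays. Without overlap of the groups, 32 of the 35 genes lay lower, as did 24.4% of all genes. Cdk1 was at -1.03 ± 0.22 (adjusted p = 0.103), Ccna2 at -0.92 ± 0.34, Kif11 at -0.92 ± 0.33, Mcm10 at -0.77 ± 0.18 and Cdc45 at -0.74 ± 0.14, with no call. Cdc20, which activates the anaphase-promoting complex, differed least, at -0.09 ± 0.16. In the pathway lists 1 gene was called: E2f2, an activating E2F factor, read 7.21 and 7.33 in B10.Q vehicle and 7.85 and 8.01 in KO controls (-0.66 ± 0.12, adjusted p = 0.0444). In the KO IFNα arrays E2f2 read 7.51 and 7.52.

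Against all 6 B10.Q macrophage arrays, both KO controls lay above the B10.Q range for 32 of the 35 genes, as for 12.7% of all genes. KO IFNα array 2 lay below that range for 20 of the 35 genes (15.6% of all genes) and above it for 1 (24.8%). KO IFNα array 1 lay above it for 13 genes (27% of all genes) and below it for 5 (40.4% of all genes). The 13 included Ccna2, Ccnb2 and Cdk1. Wee1 was the 1 gene above the B10.Q range in all 4 KO arrays, as were 4.49% of all genes. Markers of small peritoneal macrophages, monocytes and dendritic cells (11 genes) had a mean of 9.21 to 9.40 in the KO arrays and 8.41 to 8.83 in those of B10.Q macrophages. The gap was largest for H2-Ab1 (10.86 to 11.77 in KO, 7.53 to 8.48 in B10.Q) and Cd74 (11.59 to 12.20 and 9.28 to 10.09). F13a1 was also higher in every KO array. Cd226 was too, but it lay below the lower quartile on all 10 macrophage arrays. Ccr2, Irf4, Retnla, Flt3, Zbtb46, Cd209a and Itgax overlapped between the lines. Markers of large peritoneal macrophages had a mean of 11.81 to 12.18 in the KO arrays and 12.29 to 12.39 in the B10.Q arrays. Of these, only Garnl3 (10.68 to 10.91 in KO, 11.32 to 11.67 in B10.Q) and F5 (11.75 to 12.13 and 12.50 to 12.61) separated the lines. The other large macrophage markers overlapped. The means of both marker lists separated the lines in all 4 KO arrays, although most single genes did not. The part of these markers in the result was not tested.

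The difference of responses asks whether the change at 2 h differed between B10.Q and KO macrophages. It uses the arrays of the 2 comparisons above and is not independent of them. With limma, 1 of the 32 genes was called, Chek1, where 43 of all genes were (0.408%). The B10.Q response of Chek1 exceeded that of KO by 1.22 ± 0.16 (2.33-fold, adjusted p = 0.0110). Chek1 read 7.59 and 7.44 in B10.Q vehicle and 7.72 and 7.81 at 2 h after IFNα, so the B10.Q part of this difference was 0.25 ± 0.12 and the KO part -0.97 ± 0.12. The call was lost without either KO control array or either B10.Q vehicle array. All 32 genes lay above 0, as did 42.1% of all genes, with a median of 0.73. Birc5 is among them and passed the filter only through the KO control arrays. Top2a was at 1.11 ± 0.23 (adjusted p = 0.0938), Rrm2 at 0.99 ± 0.23 (adjusted p = 0.171), Mcm7 at 0.79 ± 0.16 (adjusted p = 0.0843) and Mcm2 at 0.91 ± 0.17 (adjusted p = 0.0628).

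In B10.Q macrophages themselves, IFNα left these genes near their vehicle level. None of the 32 was called at 2 h, where 84 of all genes were (0.798%), or at 5 h, where 88 were (0.836%). None had an unadjusted p under 0.05, as 4.52% of all genes did at 2 h and 3.93% at 5 h. The interferon-stimulated gene Mx1 rose at 2 h from 6.15 and 6.12 to 11.87 and 10.84. All 8 helicase genes tested lay above vehicle at 2 h, with a median of 0.16, and of the 32 genes 28 did, as did 30.8% of all genes. Mcm10 had the largest of these values, 0.35 ± 0.18 (adjusted p = 0.984), with vehicle arrays at 7.57 and 7.69 and IFNα arrays at 8.04 and 7.92. Mcm2 read 8.80 and 8.79 with vehicle and 8.98 and 9.11 at 2 h (0.25 ± 0.12). In both genes the groups did not overlap, as in 8 of the 35 genes and 11.3% of all genes. The median difference of the 32 genes was 0.10 at 2 h and 0.08 at 5 h. Between 2 h and 5 h 0 of the 32 were called (0.0095% of all genes), and Chek1 was at -0.28 ± 0.12 (unadjusted p = 0.0359, adjusted p = 0.904 with limma).

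The 2 B10.Q vehicle arrays differed in the mitotic genes. The array taken at 5 h lay above that taken at 2 h in all 13, by a median of 0.43. Plk1, a kinase of mitotic entry and spindle assembly, read 7.96 at 2 h and 8.74 at 5 h, Nusap1 read 7.84 and 8.60, and Kif11 read 8.23 and 8.75. The helicase genes differed by a median of 0.08 and all genes by 0.00. With 1 array at each time there is no replicate check, and this spread lies inside the vehicle group of the comparisons that use it.

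1 gene of nucleotide supply outside the 36 was called with IFNα in B10.Q macrophages. Dck, deoxycytidine kinase, which makes DNA precursors from salvaged nucleosides, read 8.50 and 8.45 with vehicle, 10.41 and 9.80 at 2 h and 10.14 and 10.22 at 5 h. It rose 3.09-fold at 2 h (1.63 ± 0.18, limma adjusted p = 0.0016) and 3.25-fold at 5 h (1.70 ± 0.18, adjusted p = 0.0012). In KO macrophages Dck read 8.65 and 8.60 in the controls and 8.58 and 8.40 with IFNα, and the B10.Q response exceeded that of KO by 1.76 ± 0.25 (adjusted p = 0.0133). In T cells it lay between 9.04 and 9.58 in all 6 arrays, and the macrophage response exceeded that of T cells by 1.88 ± 0.24 at 2 h (adjusted p = 0.0223) and by 1.82 ± 0.24 at 5 h (adjusted p = 0.0113). Ribonucleotide reductase, the other source of DNA precursors, was at 0.11 ± 0.16 for Rrm1 and 0.05 ± 0.16 for Rrm2 at 2 h.

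In CD4 T cells, 17 of the 35 genes passed the filter and 0 of them were called at 2 h (0.287% of all genes), at 5 h (0.0198%) or between the times (0.00989%), and 0 had an unadjusted p under 0.05 in each (6.07%, 3.83% and 9.85% of all genes). At 2 h Ccnb2 was at -0.30 ± 0.23, with vehicle arrays at 8.52 and 8.97 and IFNα arrays at 8.10 and 8.78. Ccna2 was at -0.28 ± 0.22. Pcna followed at -0.25 ± 0.14, with vehicle arrays at 11.90 and 11.83 and IFNα arrays at 11.40 and 11.84. For Ccnb2 and Pcna array 1 was the lower of the IFNα pair, and the groups overlapped. Array 1 at 2 h had a mean of 8.16 over the markers of large peritoneal macrophages, against 6.73 to 7.12 in the other T-cell arrays, and the part of this in the values was not tested. Without T-cell IFNα 2 h array 2, 3 of the genes were called lower at 2 h (1817 of all genes called). The response of macrophages minus that of T cells was called for 0 of 31 genes at 2 h (0.0269% of all genes) and at 5 h (0.251%), with medians of 0.18 and 0.08.

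**Figure D4:**
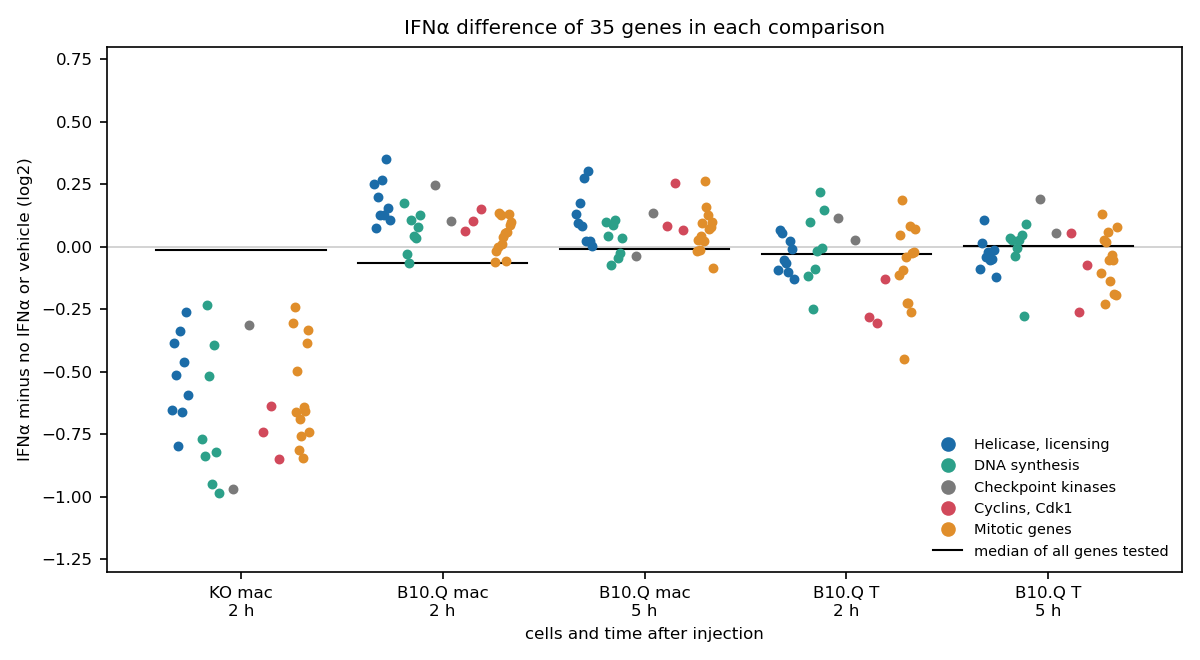
Difference in log2 intensity between IFNα and control arrays for 35 genes (points, coloured by role) in 5 comparisons, with a black line at the median of all genes tested. The KO points lie below 0, at a median of -0.65 over the genes tested, while in B10.Q macrophages the medians are 0.10 at 2 h and 0.08 at 5 h and no gene is called in any of the 5 comparisons.

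The comparison of B10.Q macrophages with B10.Q CD4 T cells, averaged over vehicle, 2 h and 5 h, asks how the cell types differ in these genes. With limma, 23 of 31 genes tested were higher in macrophages, where 33.4% of all genes were, and 3 were lower, where 43.9% were. In one direction or the other 77.3% of all 11161 genes were called, so the 26 calls are near the background. A gene was tested where 2 of the 12 arrays exceeded their own median, and 14 of the 31 passed only through macrophage arrays and had to lie higher there. Of the other 17 genes 9 were higher, 3 lower (Mcm2, Mcm4 and Mcm7) and 5 not called. The counts that follow therefore use every gene, with no filter. In that fit 26 of the 35 genes were higher in macrophages, where 22.9% of all 19752 genes were, and 4 were lower, where 32.7% were. All 6 macrophage arrays lay above all 6 T-cell arrays in 25 of the 35 genes (17.4% of all genes) and below in 4 (22.2%). For genes that passed the filter, SEs and adjusted p-values below are of the filtered fit unless no filter is named.

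Most mitotic genes and all 3 cyclin and Cdk1 genes were higher in macrophages, some of the mitotic genes only slightly. Bub1 lay between 7.61 and 8.15 in macrophages (median 7.97) and between 5.01 and 5.91 in T cells (median 5.52). The limma adjusted p for the difference was 1.11e-10 with no filter. All 6 T-cell arrays read Bub1 below their own lower quartile (6.30 to 6.37), and set against that quartile the macrophage mean was at least 3.05-fold higher. Ccna2 lay between 9.32 and 9.87 in macrophages (median 9.66) and between 6.93 and 7.75 in T cells (median 7.52), which is 4.52-fold (2.17 ± 0.13, SE, n = 6). Mki67 lay between 9.17 and 9.63 (median 9.43) and between 7.11 and 7.54 (median 7.40), which is 4.08-fold (2.03 ± 0.09). In all 3 genes the cell types were separated by more than 1 log2 unit. Ccnb2 was 3.59-fold higher, Nusap1 3.04-fold, Kif11 3.02-fold, Cdk1 2.67-fold, Tpx2, which activates Aurora A on the spindle, 2.65-fold, and Aurkb, the kinase of the chromosomal passenger complex, 2.50-fold. Aurka, which builds the spindle poles, was 1.24-fold higher (0.31 ± 0.07, limma adjusted p = 8.45e-04 with no filter). With no filter 12 of the 13 mitotic genes were called higher in macrophages. The exception was Cdc20 (0.13 ± 0.07, limma adjusted p = 0.142 with no filter). Its 95% interval in the filtered fit was -0.03 to 0.29. Cenpe, a kinesin of the kinetochore, and Birc5 (survivin), the partner of Aurkb, lay below the filter. Cenpe had a mean of 6.93 in macrophages and 5.69 in T cells, where all 6 arrays lay below their lower quartile, and was at least 1.52-fold higher against that quartile. Birc5 was at 0.50 ± 0.07.

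**Figure D5:**
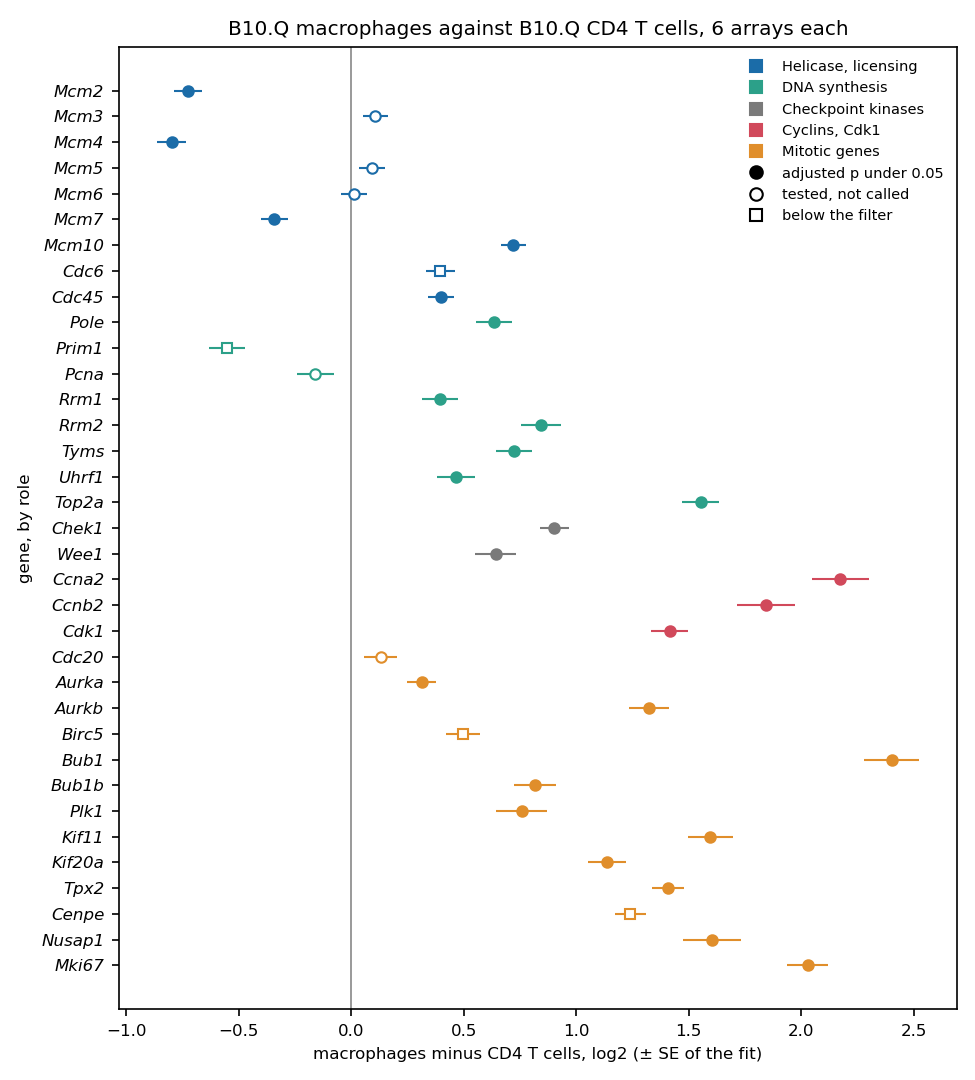
Difference in log2 intensity between 6 B10.Q macrophage and 6 B10.Q CD4 T-cell arrays for each gene, with bars of 1 SE of the fit, filled where the adjusted p is under 0.05, open where it is not, and square where the gene lay below the filter. Mitotic and cyclin genes lie to the right (2.17 for Ccna2; the point of Bub1 rests on T-cell levels below the lower quartile), while Mcm2, Mcm4 and Mcm7 lie to the left (-0.73, -0.80 and -0.34).

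The replication genes were mixed. Mcm4 lay between 8.83 and 9.14 in macrophages (median 8.95) and between 9.63 and 9.94 in T cells (median 9.75), 1.74-fold lower in macrophages (-0.80 ± 0.06, adjusted p = 1.46e-07). Mcm2 lay between 8.79 and 9.11 (median 8.93) and between 9.46 and 9.77 (median 9.67), 1.65-fold lower in macrophages. Mcm7 was 1.27-fold lower (-0.34 ± 0.06). All 3 were higher in T cells with no overlap. The other subunits of the same helicase were not called: Mcm3 was at 0.11 ± 0.06, Mcm5 at 0.09 ± 0.06 (95% interval -0.03 to 0.22) and Mcm6 at 0.01 ± 0.06 (-0.11 to 0.14). Mcm10, which activates the helicase, was 1.65-fold higher in macrophages (0.72 ± 0.06), and Cdc45 1.32-fold (0.40 ± 0.06). With no filter 3 of the 9 helicase genes were called higher in macrophages and 3 lower.

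With no filter 6 of the 8 DNA synthesis genes were called higher in macrophages and 1 lower, Prim1. Top2a lay between 8.41 and 8.91 in macrophages (median 8.74) and between 6.94 and 7.29 in T cells (median 7.18). This was a 2.93-fold difference (1.55 ± 0.08, limma adjusted p = 3.36e-10 with no filter). Rrm2 was 1.79-fold higher (0.84 ± 0.09) and Rrm1 1.31-fold (0.39 ± 0.08). Tyms, which makes thymidylate, was 1.65-fold higher (0.72 ± 0.08). Both subunits of ribonucleotide reductase and thymidylate synthase were thus higher in macrophages. Pole was at 0.64 ± 0.08 and Uhrf1 at 0.47 ± 0.08. Pcna was not called in the filtered fit (-0.16 ± 0.08, limma adjusted p = 0.101) or with no filter (adjusted p = 0.117). Under quantile normalization it was called lower, at -0.23 (adjusted p = 0.0233). Prim1 lay below the filter and went the other way, between 6.47 and 6.99 in macrophages and between 7.22 and 7.42 in T cells. Both checkpoint kinases were higher in macrophages, Chek1 by 0.90 ± 0.07 and Wee1 by 0.64 ± 0.09.

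In the pathway lists, mitotic genes were mostly higher in macrophages and licensing genes mostly lower. The counts are those with no filter. Of 58 other mitotic genes 46 were higher in macrophages and 4 lower. Anln, a scaffold of the cleavage furrow, had a mean of 8.44 in macrophages and 5.82 in T cells, where all 6 arrays lay below their lower quartile, and was at least 4.33-fold higher against that quartile. Racgap1, which positions Anln at the furrow, was at 1.93 and Ube2c, the ubiquitin-conjugating enzyme of the anaphase-promoting complex, at 1.23, while Smc4, a condensin subunit, was at -1.51. Of 17 genes of origin licensing and firing 11 were lower in macrophages and 2 higher. Those lower held both parts of the kinase that fires origins, Cdc7 (-1.26) and Dbf4 (-1.17), and Orc2, of the origin recognition complex (-0.61). Of 34 genes for polymerases and fork proteins 15 were higher and 12 lower, and of 26 G1 cyclins, their kinases and E2F factors 12 were higher and 10 lower. The D-type cyclins that start the cycle went opposite ways: Ccnd1 read 10.63 to 11.24 in B10.Q macrophages and 6.98 to 7.77 in T cells (3.67), and Ccnd2 read 8.31 to 8.61 and 12.20 to 12.48 (-3.93). The repressing factor E2f8 was at 1.77 and the activator E2f3 at 1.19. Of 23 checkpoint and repair genes 7 were higher, among them the kinase Chek2 (1.20), and 15 lower, among them the damage kinase Atm (-1.53). Of 21 kinase inhibitors and quiescence genes 14 were lower in macrophages and 6 higher. Foxo1, a factor that keeps lymphocytes quiescent, was at -2.31, Btg1, an antiproliferative gene, at -2.15 and Cdkn1b (p27) at -1.29, while Cdkn2c (p18) was at 1.68. These lists are set beside all genes, of which 22.9% were higher and 32.7% lower with no filter, and the values describe sorted populations whose share of dividing cells was not measured.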

How the data were processed

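Total RNA of sorted cells was measured on 16 arrays. The deposited values are intensities on a linear scale, which the authors summarised with RMA in Affymetrix Power Tools, per the submitters' processing notes, with versions not given in the sources used here. Their log2 was used with no further scaling, and the deposited scale held no log2 values. Arrays have no read depth, and their number limits the precision. Gene symbols were taken from the platform annotation, and a gene with several probe sets was represented by the probe set of highest mean level. Genes entered a test where 2 or more of its arrays exceeded the array median.

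With lmFit and eBayes of limma 3.58.1 (R 4.3.3), 3 models were fitted: 10 macrophage arrays, 6 T-cell arrays, and the 12 B10.Q arrays for comparisons between cell types. P-values were adjusted by Benjamini-Hochberg over all genes tested, calls were made at an adjusted p under 0.05, tests were two-sided, and errors are SEs of the fit. All of the genes were eligible to be named, and of each pathway list up to 4 called genes with the largest difference. The genes, lists and tests were chosen with earlier results of these data known. Tables and promoter searches used Python 3.11.15 with pandas 2.3.3. Alternatives changed the filter (none, or the 70th percentile), the scaling (quantile normalization, array medians subtracted), the variance model (trend, robust), the probe sets (each alone), the arrays fitted (compared groups alone, all 16, 1 left out, other groups) and added the replicate number as a block. A crossed replicate block was added after seeing the data.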

Additional observations from a re-analysis of the deposited data

Results flagged for a closer look

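The response of Chek1 to IFNα at 2 h differed between the lines by a test of the difference itself: the B10.Q response exceeded the KO response by 1.22 ± 0.16 on the log2 scale (limma adjusted p = 0.0110). Both IFNα arrays of KO macrophages lay below both KO controls, and both IFNα arrays of B10.Q macrophages lay above both vehicle arrays. The call was lost, with 0 of the genes called, without either KO control or either B10.Q vehicle array.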

How the results depend on the processing

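No difference named above changed direction under an alternative while called. In KO macrophages 0 genes were called, 1 was under quantile normalization, 5 were with all 16 arrays in the fit, and 0 to 13 were with 1 array left out. For B10.Q vehicle against KO control the count of 4 became 0 at the 70th percentile filter, 1 with array medians subtracted, 2 with every probe set, 2 with all B10.Q against all KO arrays, 11 in a fit of only these groups, 9 with all 16 arrays, and 0 to 0 with 1 array left out. For the difference of responses between the lines the count of 1 became 0 at the 70th percentile filter, 3 under quantile normalization, 5 with all 16 arrays, and 0 to 14 with 1 array left out. In T cells the count of 0 lay between 0 and 3 at 2 h and between 0 and 2 for 5 h against 2 h with 1 array left out. For macrophages against T cells the 26 calls became 10 of 13 genes tested at the 70th percentile filter and 26 to 27 with 1 array left out. The causes were not tested, except that a stricter filter tests fewer genes. The replicate number as a block gave 2 calls for B10.Q vehicle against KO control, and changed no other count by over 1.5 times. Array differences of same-numbered arrays correlated between -0.28 (the KO groups) and 0.45 over pairs of groups, and the labels name no shared animal, so the block is given only here. The crossed pairing gave 0 calls in KO macrophages.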
